A study of Mus musculus with 8 samples.

Results

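The voltage-gated sodium and calcium channel genes were followed in mice with and without maternal separation (MS) in early life. The tissue was the nucleus accumbens (NAc), the ventral part of the striatum, which takes part in motivation. Members were all probes on the array, controls left out, that are named for a numbered sodium channel subunit (Scn followed by a number and the letter a or b) or for a calcium channel subunit (Cacna, including Cacna2d, Cacnb and Cacng). The rule took 63 probes of 40 genes, of which 14 are sodium channel genes and 26 are calcium channel genes, and it used no measured value. In all, 22760 genes and transcripts were tested. The MS group held 4 adult male C3H/HeN mice that were parted from their dams every day between postnatal days 2 and 14, while the dams met unpredictable stressors. The control group held 4 male mice of the same strain raised without separation. All mice were weaned on postnatal day 21, had worked for sweetened milk in operant chambers, and were fasted before the NAc was punched from frozen slices. Labels number the individuals but do not say which of them shared a litter or a cage. In each group most of these numbers begin with the same digit, and no first digit occurs in both groups. What that digit stands for is not given, so p-values measure the spread between these mice only and take them as independent.

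Voltage-gated channels turn changes of membrane potential into ion currents. In the sodium channel an alpha subunit forms the pore and beta subunits tune its gating and its place on the membrane, and the resulting current starts and carries the action potential. High-voltage-activated calcium channels join a pore-forming alpha-1 subunit to a beta and an alpha-2-delta subunit and couple strong depolarisation to transmitter release and to gene regulation. T-type channels open near rest and underlie rebound bursts. Several Cacng genes encode proteins that escort AMPA-type glutamate receptors rather than calcium channels. In the striatum, medium spiny neurons make up most neurons and rely on these channels to move between silent and firing states.

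Each array gave a level per probe, the log2 of its processed signal after subtracting that array's own 75th percentile, so that 0 is the 75th percentile and 1 unit is a doubling. The share of probes well above background ran between 57.3% and 69.7%, at 59.4 ± 1.55% in MS mice and 61.3 ± 5.75% in control mice (SD, n = 4 each, exact two-sided permutation test, p = 0.83), and was highest in control replicate 4. That percentile, on the linear scale, was 334.5 ± 28.2 in MS mice and 322.7 ± 54.6 in control mice (SD, n = 4 each, exact permutation test, p = 0.714). All 8 arrays lay on 1 slide, with both groups in each of its 2 rows. Ppp1r1b, a marker of medium spiny neurons, had a level of 7.85 ± 0.09 in MS mice and 7.61 ± 0.34 in control mice (SD, n = 4 each).

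An array reads a gene only through the stretch its probe matches, and the channel genes carry 1 to 5 probes each. The probes on which the results turn are printed 5′ to 3′ to show which end of the transcript they read, with positions in genome build mm9. The probe A_55_P2132756 of Cacna1g, at chr11:94270459-94270518 on the minus strand, ends in a TGA triplet (capitals) that closes its only open reading frame. Of the other probes, those not clearly inside coding sequence are shown by their first 30 bases.
Cacna1g A_55_P2132756: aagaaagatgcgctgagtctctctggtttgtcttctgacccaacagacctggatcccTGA
Cacna1g A_51_P466910: catcttcaacggaaagcgagaaccattttg
Cacna2d2 A_55_P1976734: tgtcagctgtgtcctgtgggggcgtgtgtg
Cacna2d2 A_55_P2122879: tattttcaaatggtttattacagaagatca
Cacna1c A_55_P2014154: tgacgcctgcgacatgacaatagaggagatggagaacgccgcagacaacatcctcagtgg
Scn3a A_55_P2065294: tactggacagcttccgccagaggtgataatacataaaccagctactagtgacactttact
The second Cacna1g probe starts 596 bases further along the transcript (chr11:94269863-94269922, minus strand). Both probes of Cacna2d2 lie on the plus strand and start 370 bases apart (chr9:107431245-107431304 and chr9:107431615-107431674). The further one is 78.3% A and T over its full length, against 45% for the nearer one. The Cacna1c probe (chr6:118544079-118544138) and the Scn3a probe (chr2:65346334-65346393) are on the minus strand and hold 1 open reading frame each.

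Of the 63 probes, 60 were tested, having signal well above background on 4 or more of the 8 arrays, which covered 39 of the 40 genes. Scn7a, an atypical sodium channel that senses the sodium level, was not above background on any array, nor were 1 probe of Cacna1f and 1 of Cacng2. No member probe passed the threshold of limma (adjusted p under 0.05 over all 33111 probes tested), and the lowest adjusted p was 0.130. Over the whole array 4 probes passed, or 0.0121%. At an unadjusted limma p under 0.05 there were 15 member probes (25%), against 14.1% of all probes, and the groups did not overlap for 6 member probes (10%), against 8.75% of all probes. With 1 probe per gene, the one with the highest mean level, 5 of 39 genes were higher in MS mice at an unadjusted p under 0.05 (background 5.88%) and 4 were lower (background 7.96%). The groups did not overlap for 0 genes on the higher side (background 3.74%) and for 3 on the lower side (background 5.25%), which were Cacna1g, Cacna2d2 and Cacna1c. The difference was positive for 23 genes and negative for 16 (positive for 50.1% of all genes tested), and without control replicate 4 it was positive for 22. The median difference, MS minus control, was 0.05 on the log2 scale over members and 0.000189 over all genes tested. The member median was 0.008 with normexp, 0.02 without background subtraction and 0.09 with median scaling. Over all probes tested, the median was 0.003 as processed here, -0.014 with normexp and 0.049 with median scaling. Part of these shifts was thus shared by the whole array. For 26 of the 39 genes the difference was smaller than 0.2 in size.

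**Figure D1:**
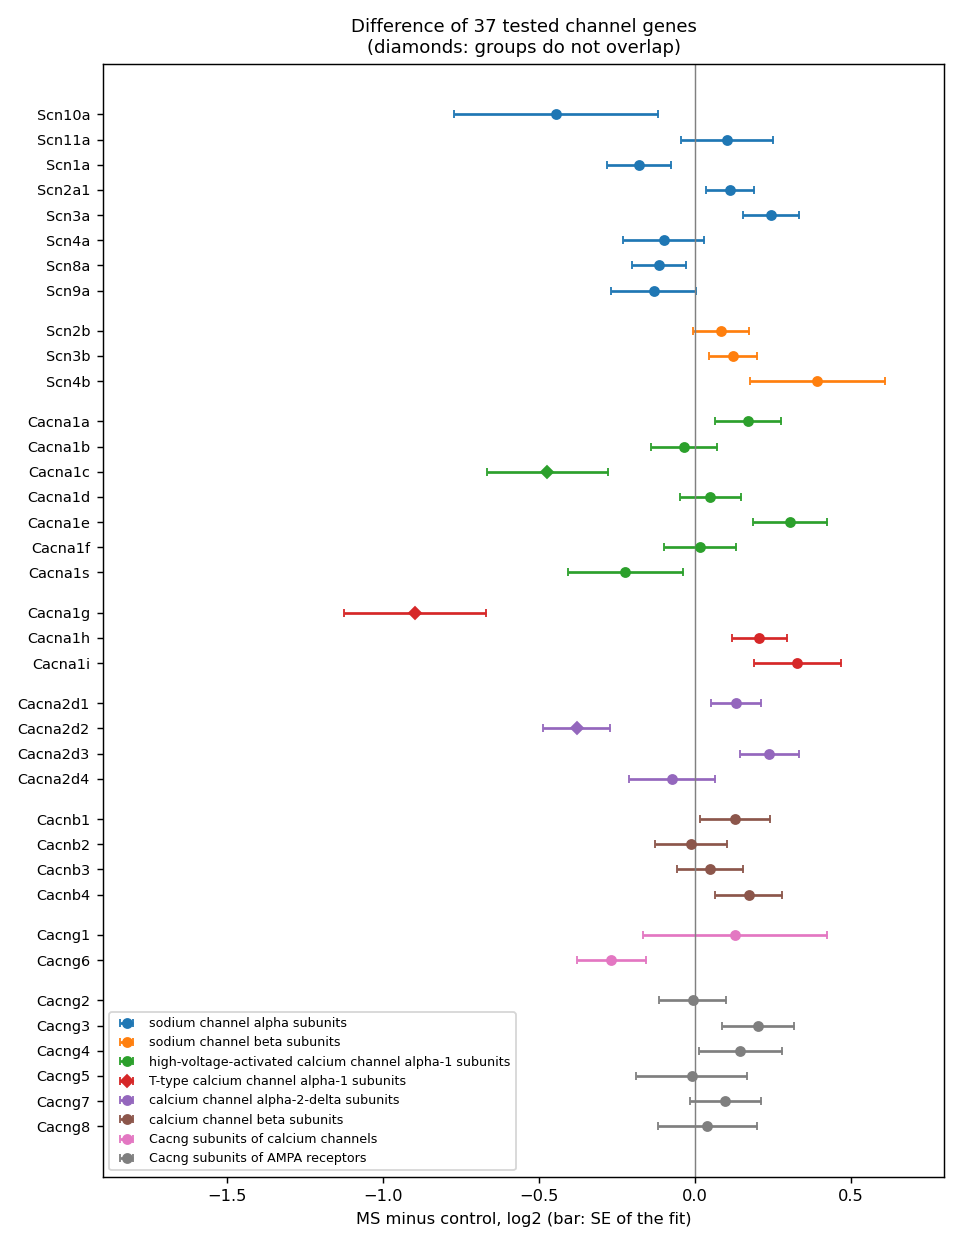
Difference between MS and control mice (log2, horizontal axis) for the brightest probe (highest mean level) of each of 37 tested channel genes, grouped by subfamily, with the SE of the limma fit as bars and diamonds where the groups do not overlap. Most genes lie within 0.2 of 0, and Cacna1g stands furthest to the left at -0.90.

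Among the 3 T-type alpha-1 subunits the differences ran between -0.90 and 0.33 on the brightest probes. Cacna1g encodes a pore of the T-type current, known for burst firing in thalamic relay neurons and also present in other subcortical neurons. On the probe at the stop codon its log2 levels were -0.07, -0.92, -0.29 and -0.51 in MS mice, against 0.27, 0.60, 0.09 and 0.69 in control mice. Every MS mouse was below every control mouse. The difference was -0.86 (SE 0.199, a ratio of 0.550, limma adjusted p = 0.130). On the second probe the levels were -0.16, -0.84, -0.02 and -0.64 in MS mice, against 0.22, 0.46, 0.26 and 0.99 in control mice. The groups again did not overlap, with MS replicate 2 lowest and control replicate 4 highest, and the difference was -0.90 (SE 0.227, a ratio of 0.536, limma adjusted p = 0.156). Both probes showed the difference in each row of the slide, at -0.93 and -0.79 on the first probe and -0.84 and -0.96 on the second in rows 1 and 2. Leaving out 1 mouse at a time gave -0.99 to -0.70 on the first probe and -1.03 to -0.73 on the second.

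The call for Cacna1g depended on how the values were processed. The first probe passed the threshold of limma with normexp background correction (-0.75, adjusted p = 0.0152, where 1.54% of all probes passed), without background subtraction (-0.80, adjusted p = 0.0356, where 0.939% passed) and on the deposited values (-0.78, adjusted p = 0.0345, where 1.2% passed). The second probe passed with normexp alone (-0.74, adjusted p = 0.0348). Over all settings the adjusted p ranged between 0.0152 and 0.342 for the first probe and between 0.0348 and 0.385 for the second. Cacna1g is the only channel gene in the list of changed genes that the study drew from these same arrays, so that list is no independent evidence for its direction.

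Markers of other cells were read beside Cacna1g and the other channel genes. In bulk tissue, fewer cells of a type in the punch, from whichever region, and less RNA per cell cannot be told apart. Of 11 tested markers of pallidal and fast-spiking neurons, 9 had a negative difference (median -0.92) and 7 had separate groups on the lower side (5.25% of all genes tested), and their summed level, in multiples of the 75th percentile, was 42.2 to 48.6 in MS mice and 49.8 to 61.9 in control mice. Npas1 differed by -2.26 (SE 0.366, limma adjusted p = 0.0745) and Lhx8 by -0.92 (SE 0.149, limma adjusted p = 0.0745). Of 7 tested markers of thalamic and other Slc17a6 neurons, 6 were negative (median -0.48), with sums of 2.51 to 2.92 in MS mice and 3.15 to 3.88 in control mice. Groups were separate for 3 of the 7 on the lower side and for 1 on the higher side. Calb2, which is also in the list of striatal interneurons, differed by -1.43 (SE 0.358, limma adjusted p = 0.155) and Gbx2 by -1.17 (SE 0.2997, limma adjusted p = 0.160). Lef1 was the one on the higher side, at 0.22 (SE 0.068, limma adjusted p = 0.214). Tcf7l2 (-0.13, SE 0.118) and Rora (-0.07, SE 0.076) differed little. Of 9 tested hypothalamic and preoptic markers, 8 were negative (median -0.41) and 5 had separate groups on the lower side. Sums over the 9 were 6.39 to 9.46 in MS mice and 11.6 to 18.3 in control mice. Lhx5 in this list was 1 of the 4 probes called on the array (limma adjusted p = 0.00804). Resp18 differed by -1.13 (SE 0.214, limma adjusted p = 0.100), and Avp and Sim1 were not above background on any array. Astrocyte markers were negative in 7 of 10 (median -0.20), and 3 had separate groups on the lower side. Sums over the 10 were 79.6 to 87.1 in MS mice and 91.3 to 100.7 in control mice. Agt differed by -1.998 (SE 0.259, limma adjusted p = 0.0695) and Ntsr2 by -0.42 (SE 0.086, limma adjusted p = 0.109). The positive ones were Slc1a2 (0.16, SE 0.076), Aqp4 (0.06, SE 0.134) and Sox9 (0.05, SE 0.088). All 19 tested markers of medium spiny neurons had a positive difference (median 0.33), and 3 had separate groups on the higher side (3.74% of all genes tested). Sums over the 19 were 1466 to 1774 in MS mice and 1038 to 1559 in control mice. These sums overlapped, none of the 19 passed the threshold, and the lowest p-values were those of Rarb (0.33, SE 0.102) and Meis2 (0.28, SE 0.088). The sums also overlapped between groups for the remaining lists. Their differences were negative for 8 of 8 microglial markers, 9 of 10 oligodendrocyte markers, 4 of 5 cortical markers and 3 of 4 muscle markers, none with separate groups. Precursor markers were negative in 5 of 6, and 3 had separate groups on the lower side (5.25% of all genes tested). Markers of other striatal interneurons were negative in 9 of 11, and 1 had separate groups on the lower side. Blood vessel markers were negative in 3 of 8, and 2 had separate groups on the higher side (3.74% of all genes tested). The precursor marker C1ql1 differed by -0.53 (SE 0.092, limma adjusted p = 0.0871). The part of these markers in the differences of the channel genes was not tested.

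The other T-type subunits had differences of the opposite sign on their brightest probes. Cacna1i encodes a T-type pore with slow kinetics, and its brighter probe had levels of 3.11, 3.23, 3.42 and 3.31 in MS mice, against 2.88, 3.09, 3.21 and 2.58 in control mice. The groups overlapped, with control replicate 4 lowest, and the difference was 0.33 (SE 0.140, limma adjusted p = 0.344). Without control replicate 4 it was 0.21. The second Cacna1i probe differed by -0.03 (SE 0.079). Cacna1h, a T-type pore also active in sensory neurons, differed by 0.21 (SE 0.089, limma adjusted p = 0.347) on its brightest probe, and its 2 other probes differed by 0.21 (SE 0.175) and -0.003 (SE 0.082). Within each array, the log2 level of Cacna1g minus that of Cacna1h ran between -4.22 and -3.33 in MS mice and between -2.93 and -1.93 in control mice. The same subtraction against Cacna1i gave -4.06 to -3.27 in MS mice and -2.95 to -1.58 in control mice. Neither pair overlapped between groups. These pairs were chosen after their values were seen and were not tested, and a difference between probes on 1 array carries the unequal brightness of probes, so that only its shift between groups can be read.

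**Figure D2:**
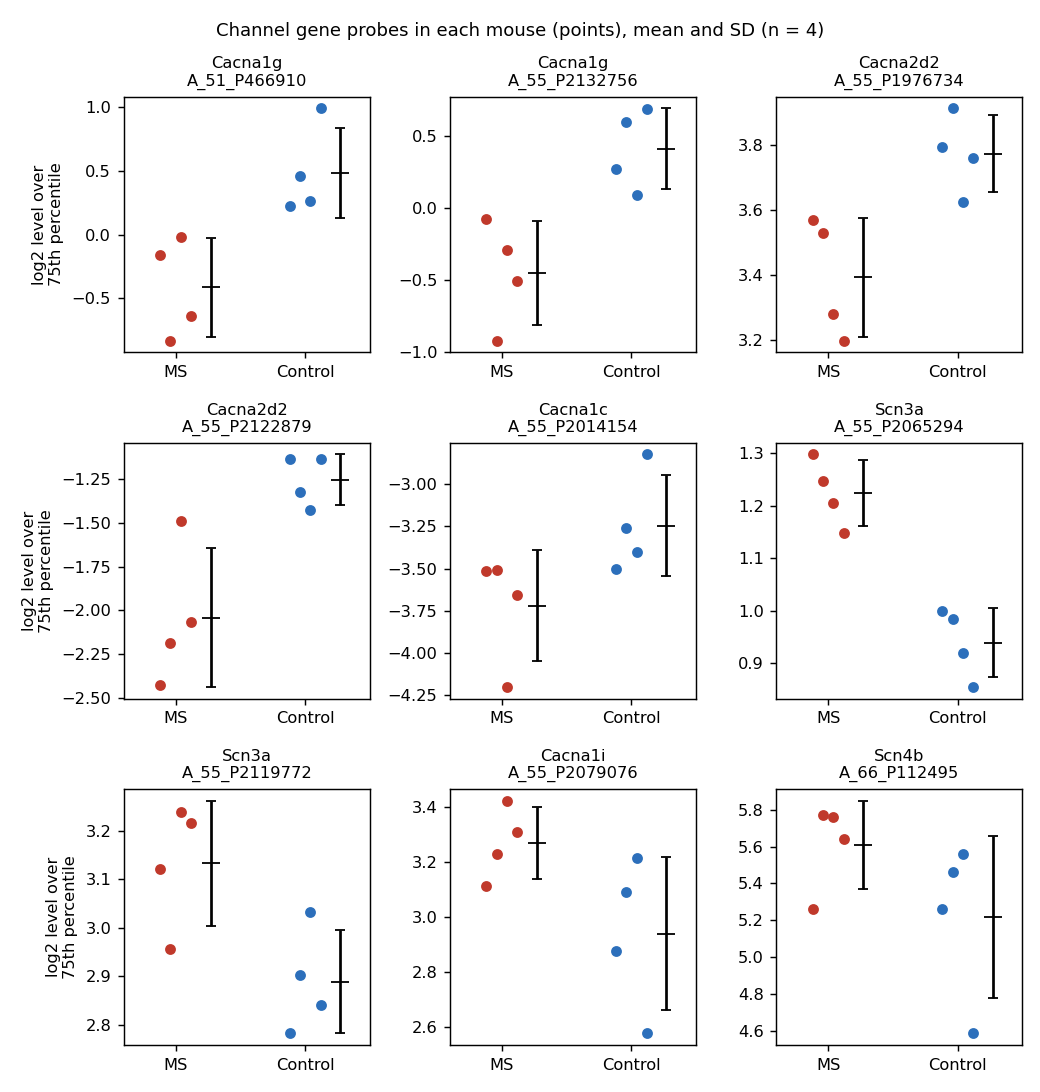
Log2 level over the 75th percentile of the array (vertical axis) in each mouse for 9 probes, with MS mice left of control mice and the mean and SD (n = 4) beside the points. The groups do not overlap for both Cacna1g probes, both Cacna2d2 probes, Cacna1c and the upper of the 2 Scn3a panels, and overlap for the other Scn3a probe, Cacna1i and Scn4b.

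Among the alpha-2-delta subunits, which carry calcium channels to the membrane and bind gabapentinoid drugs in some forms, Cacna2d2 was the one with separate groups. This gene is mutated in the ducky mouse, which has ataxia and absence seizures. On its brighter probe the log2 levels were 3.57, 3.53, 3.28 and 3.20 in MS mice, against 3.79, 3.91, 3.63 and 3.76 in control mice. No MS value reached the lowest control value, and the difference was -0.38 (SE 0.107, a ratio of 0.769, limma adjusted p = 0.183). On its dimmer probe the levels were -2.43, -2.18, -1.49 and -2.07 in MS mice, against -1.13, -1.32, -1.43 and -1.13 in control mice. The groups were again separate, although MS replicate 3 came close to control replicate 3. The difference was -0.79 (SE 0.186, a ratio of 0.579, limma adjusted p = 0.135), with -1.08 in row 1 of the slide and -0.50 in row 2. This dimmer probe passed the threshold of limma with normexp (-0.51, adjusted p = 0.0218), without background subtraction (-0.61, adjusted p = 0.0423) and with a variance trend and robust moderation (-0.79, adjusted p = 0.0395, where 1.53% of all probes passed). The brighter probe passed in no setting, with adjusted p-values between 0.0546 and 0.428. The subtraction of the brighter from the dimmer probe within each array gave values that overlapped between groups, so the unequal size of the 2 differences was not separate from the spread.

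The groups overlapped for the other alpha-2-delta genes. Cacna2d3, a form of brain and sensory pathways, had levels of 4.32, 4.60, 4.57 and 4.49 in MS mice, against 4.38, 4.31, 4.27 and 4.07 in control mice. MS replicate 1 lay within the control values, and the difference was 0.24 (SE 0.095, limma adjusted p = 0.313). Cacna2d1 differed by 0.13 (SE 0.081) and 0.17 (SE 0.085) on its 2 probes, and Cacna2d4 by -0.07 (SE 0.138). Within each array, Cacna2d2 minus Cacna2d1 ran between 0.37 and 0.88 in MS mice and between 0.94 and 1.13 in control mice. Cacna2d2 minus Cacna2d3 ran between -1.29 and -0.75 in MS mice and between -0.64 and -0.30 in control mice. Neither overlapped, and neither was tested, since the pairs were picked after their values were known.

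Of the 7 high-voltage-activated alpha-1 subunits, 4 had a positive and 3 a negative difference. Cacna1c, the main L-type pore of the brain, heart and vessels, had levels of -3.51, -3.51, -4.20 and -3.66 in MS mice, against -3.50, -3.26, -3.40 and -2.82 in control mice. The groups did not overlap, but MS replicates 1 and 2 lay just under control replicate 1. The difference was -0.47 (SE 0.194, a ratio of 0.720, limma adjusted p = 0.325). It was -0.13 in row 1 of the slide and -0.82 in row 2, and -0.31 without MS replicate 3. With normexp it was -0.19, without background subtraction -0.25 and on the deposited values -0.17. A probe outside the rule, named D930026N18Rik on the array and since assigned to Cacna1c, lies on the same strand (chr6:118537316-118537375). It was far brighter, with a level of 3.48 in MS mice and 3.33 in control mice. Its difference was 0.15 (SE 0.109, limma adjusted p = 0.596), which is the opposite sign. Cacna1e, the R-type pore, had levels of -2.46, -2.05, -2.40 and -2.08 in MS mice, against -2.47, -2.74, -2.54 and -2.44 in control mice. MS replicate 1 lay inside the control values, and the difference was 0.30 (SE 0.118, limma adjusted p = 0.306). It was 0.12 with normexp and 0.17 without background subtraction.

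The groups overlapped for the remaining high-voltage-activated pores. Cacna1a, the P/Q-type pore of fast transmitter release, differed by 0.17 (SE 0.106) and 0.18 (SE 0.138) on its 2 probes. Cacna1b, the N-type pore, differed by -0.04 (SE 0.105). Cacna1d, an L-type pore that opens at lower voltages, differed by 0.05 (SE 0.098) on one probe and by -0.08 (SE 0.106) on the other. Cacna1f, known from the retina, differed by 0.02 (SE 0.115). Cacna1s, the L-type pore of skeletal muscle, differed by -0.22 (SE 0.184) on its brighter probe and by -0.55 (SE 0.237, limma adjusted p = 0.349) on a dim probe that was above background on 3 of 4 MS arrays and 4 of 4 control arrays. Of 8 skeletal and heart muscle markers, 4 were tested, of which 1 had a positive and 3 a negative difference, and Myh1 and Ckm among the others were not above background on any array. Acta1 had a level of -0.59 in MS mice and -0.46 in control mice, and Tnnt2 had 0.55 in both groups.

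Of the sodium channel alpha subunits, Scn3a was the one with a probe whose groups did not overlap. It encodes a pore that is most abundant in the embryonic and newborn brain, and all 5 of its probes had a positive difference. The probe printed above is annotated to a transcript record that no other Scn3a probe carries. On it the levels were 1.30, 1.25, 1.20 and 1.15 in MS mice, against 1.0, 0.98, 0.92 and 0.85 in control mice. Mice of 1 group lay close together, and the groups did not overlap. The difference was 0.29 (SE 0.067, a ratio of 1.22, limma adjusted p = 0.135), with 0.28 in row 1 of the slide and 0.29 in row 2, and 0.26 to 0.31 when 1 mouse was left out. It passed the threshold in no setting, with adjusted p-values between 0.0633 and 0.380. On the brightest Scn3a probe the levels were 3.12, 2.96, 3.24 and 3.22 in MS mice, against 2.78, 2.90, 3.03 and 2.84 in control mice. There the groups overlapped through MS replicate 2 and control replicate 3, and the difference was 0.24 (SE 0.089, limma adjusted p = 0.281). The other 3 probes differed by 0.23 (SE 0.094), 0.19 (SE 0.083) and 0.04 (SE 0.203). These 5 probes were read on the same RNA samples and are not 5 replicates.

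The sodium channel pores of the adult forebrain did not separate the groups. Scn1a, the pore on which fast-spiking interneurons depend, differed by -0.18 (SE 0.104) and -0.10 (SE 0.078) on its 2 probes. Scn2a1 (now Scn2a), a pore of unmyelinated axons and of projection neurons, differed by 0.11 (SE 0.077), 0.10 (SE 0.107) and 0.10 (SE 0.066) on its 3 probes. Scn8a, the main pore of the adult axon initial segment, differed by -0.12 (SE 0.086) on its brightest probe and by 0.04 (SE 0.082) and 0.06 (SE 0.138) on the others. Within each array, Scn3a minus Scn8a on their brightest probes ran between 1.14 and 1.48 in MS mice. In control mice it ran between 0.91 and 1.06, without overlap. Against Scn1a and Scn2a1 the same subtraction overlapped between groups. These pairs were also picked after their values were seen and were not tested. Scn4a, the pore of skeletal muscle, and Scn9a, Scn10a and Scn11a, known from sensory neurons, differed by -0.45 to 0.10, and none had an adjusted p under 0.589.

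Among the sodium channel beta subunits, Scn4b has a known place in the striatum, where it is abundant in medium spiny neurons and shapes resurgent sodium current. Its levels were 5.26, 5.77, 5.76 and 5.64 in MS mice, against 5.26, 5.46, 5.56 and 4.59 in control mice. The value of control replicate 4 was far below the other 7 mice, and the groups overlapped. The difference was 0.39 (SE 0.217, limma adjusted p = 0.462), and it was 0.18 without control replicate 4. Scn2b differed by 0.08 (SE 0.090) and Scn3b by 0.12 (SE 0.077).

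The calcium channel beta subunits, which bind alpha-1 inside the cell and set its surface density, differed between -0.01 and 0.17 on their brightest probes. Cacnb4, the gene of the lethargic mouse, had the lowest unadjusted p among them and differed by 0.17 (SE 0.107, limma adjusted p = 0.518), or 0.09 without control replicate 4. Cacnb1 differed by 0.13 (SE 0.112) and Cacnb3 by 0.05 (SE 0.105). Cacnb2 differed by -0.01 (SE 0.115) on its brightest probe and by -0.10 (SE 0.076) and 0.30 (SE 0.231) on the others. None of the 6 beta subunit probes had groups that were separate.

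Of the Cacng genes, Cacng6 is a relative of the muscle calcium channel gamma subunit. Its levels were -2.73, -2.95, -2.53 and -2.62 in MS mice, against -2.48, -2.34, -2.62 and -2.32 in control mice. The groups overlapped through control replicate 3, and the difference was -0.27 (SE 0.110, limma adjusted p = 0.327). It was -0.14 with normexp, -0.17 without background subtraction and -0.14 on the deposited values. Cacng1, the muscle gamma subunit, was above background on 3 arrays of each group and differed by 0.13 (SE 0.295). Among the 6 Cacng genes of AMPA receptor auxiliary proteins, Cacng3 had the lowest unadjusted p, with a difference of 0.20 (SE 0.116, limma adjusted p = 0.477), or 0.12 without control replicate 4. Cacng2, known as stargazin, differed by -0.01 (SE 0.107). Cacng7 differed by 0.10 (SE 0.113) on one probe and by -0.09 (SE 0.130) on the other, and Cacng4, Cacng5 and Cacng8 differed by -0.01 to 0.15.

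**Figure D3:**
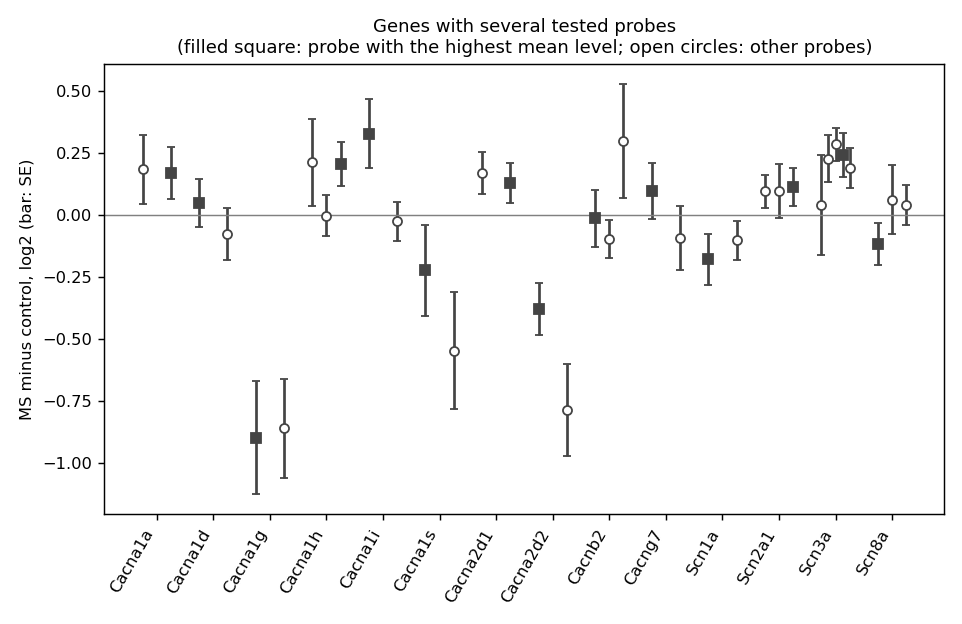
Difference between MS and control mice (log2, vertical axis, SE as bars) of every tested probe of the 14 channel genes with more than 1 tested probe, where filled squares mark the brightest probe and open circles the others. Both probes of Cacna1g lie near -0.9 and all 5 of Scn3a lie above 0, while 6 genes have probes on both sides of 0.

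Probes of 1 gene gave differences of the same sign in 8 of the 14 genes with several tested probes. In the other 6 (Cacna1d, Cacna1h, Cacna1i, Cacnb2, Cacng7 and Scn8a) the signs were mixed, and no probe of these genes had groups that were separate. For Cacna1i and Cacna1h, whose brightest probes had an unadjusted p under 0.05, the value on the second probe of Cacna1i (-0.03) and on 1 further probe of Cacna1h (-0.003) had the opposite sign.

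**Figure D4:**
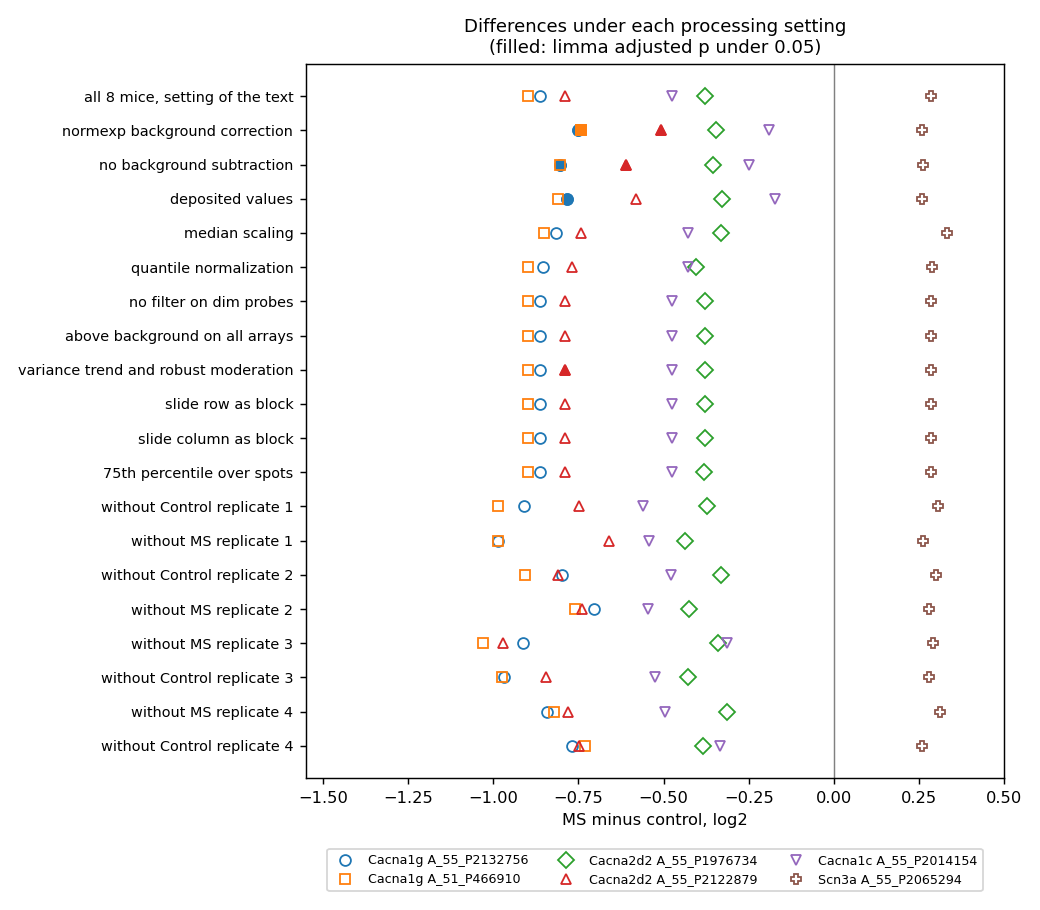
Difference between MS and control mice (log2, horizontal axis) of 6 probes under each processing setting and with each mouse left out, filled where the limma adjusted p was under 0.05. Every value of Cacna1g, Cacna2d2 and Cacna1c is below 0 and every value of Scn3a A_55_P2065294 is above 0, and the filled points belong to both Cacna1g probes and the dimmer Cacna2d2 probe.

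Proteins that bind or serve these channels were counted from a list of 32 genes, all of which were tested. None passed the threshold of limma, 20 had a positive and 12 a negative difference, and the median difference was 0.04. The groups were separate for 4 genes on the higher side (background 3.74%) and 2 on the lower side (background 5.25%). Camk2a, the kinase subunit that phosphorylates sodium and L-type channels, differed by 0.31 (SE 0.067, limma adjusted p = 0.119). Fgf12, an intracellular factor that binds the tail of sodium channels, differed by -0.31 (SE 0.075, limma adjusted p = 0.150). Rrad, a small GTPase that restrains calcium channels in heart and muscle, differed by -0.65 (SE 0.174, limma adjusted p = 0.170). Its probe was dim, with a level of -5.0 in MS mice and -4.3 in control mice. Unc79, a partner of the sodium leak channel, differed by 0.31 (SE 0.086, limma adjusted p = 0.183), while the leak channel Nalcn itself differed by -0.05 (SE 0.128).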

How the data were processed

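Gene expression was read on 1-colour Agilent arrays, 1 per mouse (4 MS and 4 control mice), from Cy3-labelled cRNA made from 40 ng of total RNA. The authors deposited scanner files with spot intensity values on a linear scale from Agilent Feature Extraction 10.10.1.1, and a table of log2 values for 31261 probes. That table followed the log2 mean signal without background subtraction (r of at least 0.9997 per array, each column's median 8.01), so its scale and direction are those of levels, uncentred. Its columns also had nearly equal lower quartiles (6.43 to 6.44) and upper quartiles (10.24). The arrays had thus been normalized to each other, by a method not given in the sources used here. Build mm9 comes from the file headers, whose array design differs from the one in the study's methods.

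Control spots and those flagged as outliers (between 122 and 189 an array) were dropped before spots of 1 probe were averaged. No spot was saturated. Of 55681 probes, 24 lacked a value on some array. The log2 processed signal minus each array's 75th percentile was compared with limma 3.58.1 in R 4.3.3 (MS minus control), on probes whose signal was well above background on 4 or more of 8 arrays, with Benjamini-Hochberg adjustment at 0.05. The script was tested on simulated data. Precision is limited by 4 arrays per group. Settings varied were the background correction, scaling, filter, variance model, slide row or column as a block, probe averaging, the deposited values, and each mouse left out.

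Named genes were those whose brightest probe had separate groups or an unadjusted p under 0.05, Cacna1g, those with probes of mixed sign, and the lowest p in each subfamily. For lists, genes with the lowest p-values were to be named, which was kept to the lists closest to the results. Ppp1r1b, Nalcn, Acta1, Tnnt2 and the within-array pairs were chosen after their values were seen. Members and lists were chosen with earlier results of these data known. Gene names were updated through RefSeq names of assembly GRCm38.p6, which changed 1 member symbol. The values of 2 tested members are not reported here, although the counts over all members hold them.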

Additional observations from a re-analysis of the deposited data

How the results depend on the processing

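The number of probes called over the array was 4 (1 higher in MS mice). It was 509 (98 higher) with normexp, 311 (21 higher) without background subtraction, 375 (69 higher) on the deposited values, 96 (6 higher) with median scaling, 108 (9 higher) with only probes above background on all arrays, 505 (117 higher) with a variance trend and robust moderation, 1 (0 higher) with quantile normalization, with the slide row as a block or with the 75th percentile taken over spots, which was added after seeing the data, and 0 without the filter on dim probes or with the slide column as a block. Leaving out 1 mouse gave 0 to 39, with 39 without control replicate 3 and 0 or 1 otherwise. The cause was not tested.

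Member probes called were 0 of 60 (0.0121% of all probes passed). They were 3 of 60 with normexp (1.54% of all probes) and 2 of 60 without background subtraction (0.939%). On the deposited values, which hold 58 of these probes, 1 was called (1.2% of all probes). With the variance trend 1 of 60 was called (1.53%). Member probes called were 0 in every other setting and in all 8 fits that left out a mouse. Of 39 member genes, 23 had a positive difference, and 21 to 27 did under the other settings with all mice. The 27 came with median scaling, where the median over all probes tested was 0.049. The share of all genes with a positive difference was not counted under the other settings. Differences near 0 turned sign. Cacna1d A_51_P251209 (0.0486) became -0.0148 when averaged over its probes, and -0.0111 to 0.138 with a mouse left out. Cacnb2 A_51_P283300 (-0.0130) became 0.0338 with median scaling and 0.0621 averaged over its probes, and -0.0645 to 0.0864 with a mouse left out. Scn3a A_51_P398037 (0.0414) became -0.00881 with normexp, and -0.0758 to 0.201 with a mouse left out. The other probes among the 22 followed kept their sign in every setting in which they were fitted. Scn3a A_55_P2065288 is absent from the deposited values, and averaging over probes applied only to genes with several tested probes. No paired analysis was possible because the labels give the groups no shared replicate numbers. The dim probes of Cacna1c, Cacna1e, Cacng6 and Cacna2d2 (A_55_P2122879) had differences at least 1.5 times smaller with normexp, and 4 arrays per group limit what can be called.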
